A study of Mus musculus with 14 samples.

Results

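The retinoid genes, Cyp26b1, Cyp26a1, Rarb, Lrat, Rbp4 and Aldh1a1, were followed together in the livers of mice given furan. They were found through the RefSeq accessions of the array's probes, which gave 7 probes for the 6 genes (Rarb had 2), and they are 6 of 21975 genes tested. The genes were picked for their function with their dose differences on these arrays already known, so those differences are given as a description, without a test. Livers came from 14 female B6C3F1 mice, a hybrid laboratory strain, bought at 5 to 6 weeks of age. Corn oil alone was gavaged in 4 mice, furan at 1 mg/kg body weight in 5 and furan at 8 mg/kg in 5, for 3 weeks. Furan forms in heated food and is oxidised in liver to a reactive dialdehyde. All 14 mice, controls included, had also drunk bromodeoxyuridine (BrdU), a thymidine analogue, during the last 5 days, and livers were collected 4 h after the final gavage. Mice of a group are separate animals, named as biological replicates in the submitters' design text, and each mouse is 1 array.

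Retinoic acid, the active form of vitamin A, is made from retinol by way of retinal, and the last step is carried out by retinaldehyde dehydrogenases such as Aldh1a1. It binds nuclear receptors, among them the retinoic acid receptor beta encoded by Rarb, which pair with retinoid X receptors on direct repeats of a short DNA half-site, and it is broken down by the hydroxylases Cyp26a1 and Cyp26b1. The liver is the main store of vitamin A: Lrat makes retinyl esters, which are kept mostly in the lipid droplets of hepatic stellate cells, and Rbp4, made by hepatocytes, carries retinol into blood.

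The stretch before the transcription start is shown for 4 of the genes, because Rarb and Cyp26a1 are textbook targets of retinoic acid, and because Cyp26b1, Lrat and Rarb varied together across the arrays whereas Cyp26a1 did not follow them across doses. Each is 250 bases long, from RefSeq (GRCm38.p6), written 5′ to 3′ on the gene's own strand. The windows were searched on both strands for 2 half-sites, each NGNTCA with A or G before its G and G or T after it, as a direct repeat with 1, 2 or 5 bases between them, and capitals mark the half-sites of a repeat.
Rarb, chr14:16575477-16575726, minus strand: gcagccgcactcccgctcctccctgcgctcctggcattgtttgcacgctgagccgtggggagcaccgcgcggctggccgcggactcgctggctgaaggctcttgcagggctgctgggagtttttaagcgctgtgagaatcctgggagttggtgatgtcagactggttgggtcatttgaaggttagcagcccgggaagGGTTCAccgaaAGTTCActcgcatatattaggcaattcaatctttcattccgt
Cyp26a1, chr19:37697558-37697807, plus strand: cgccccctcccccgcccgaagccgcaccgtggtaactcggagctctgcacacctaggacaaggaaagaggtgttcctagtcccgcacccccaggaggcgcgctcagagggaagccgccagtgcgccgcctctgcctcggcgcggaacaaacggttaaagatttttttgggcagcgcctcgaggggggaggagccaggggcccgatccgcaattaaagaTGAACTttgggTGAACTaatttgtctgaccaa
Cyp26b1, chr6:84593811-84594060, minus strand: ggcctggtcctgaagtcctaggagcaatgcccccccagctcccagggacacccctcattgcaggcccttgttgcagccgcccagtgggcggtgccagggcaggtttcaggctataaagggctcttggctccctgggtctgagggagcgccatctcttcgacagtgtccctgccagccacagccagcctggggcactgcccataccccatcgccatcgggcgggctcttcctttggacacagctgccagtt
Lrat, chr3:82903975-82904224, minus strand: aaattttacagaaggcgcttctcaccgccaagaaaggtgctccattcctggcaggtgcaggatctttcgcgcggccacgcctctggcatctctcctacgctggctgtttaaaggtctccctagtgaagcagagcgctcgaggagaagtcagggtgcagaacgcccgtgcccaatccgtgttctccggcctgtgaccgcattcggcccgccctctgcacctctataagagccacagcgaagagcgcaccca

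Rarb held 1 direct repeat with 5 bases between its half-sites, from base -53 to base -37 before the start, on the gene's own strand. Cyp26a1 held 1 such repeat from base -32 to base -16, on the opposite strand. A repeat with this spacing was found in 29 of 32851 mouse promoter windows of the same length (0.0883%), and any of the 3 spacings in 140 (0.426%). Because Rarb and Cyp26a1 were shown as textbook targets, these shares do not measure how unexpected their matches are. No direct repeat was found in these windows of Cyp26b1 and Lrat, nor at either of the 2 starts listed for Rbp4 and for Aldh1a1. A match is a string of letters and not a measured binding site, and a window without one says nothing about binding elsewhere. Cyp26a1 and Rbp4 lie near each other on chromosome 19, with 3 protein-coding genes between them, and Cyp26c1, the remaining member of the Cyp26 family, is the direct neighbour of Cyp26a1.

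Each value is the log2 of the liver signal divided by the signal of a universal mouse reference RNA on the same array, so that 0 means equal signal. A ratio compares 1 probe across mice, and ratios of different genes are not set against each other. The 14 arrays lay on 5 slides: slides 1 to 4 held all 3 groups, and slide 5 held 1 array at 1 mg/kg and 1 at 8 mg/kg. Differences between doses come from a linear model (limma) with the slide as a block, with standard errors (SE). In liver, between 23062 and 29847 of the 55681 probes stood clear of background on each array, and any 2 arrays correlated at 0.9695 to 0.9923. All 6 genes were well above background in liver on 14 of 14 arrays, whereas the reference channel of Lrat was so on 0 arrays and that of Cyp26a1 on 12. A ratio over a reference at background carries that channel's noise. Hepatocyte markers stood high on every array, with a mean log2 ratio of 5.88 to 7.62 in corn oil mice, 5.93 to 7.73 at 1 mg/kg and 5.92 to 7.46 at 8 mg/kg.

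Cyp26b1, 1 of the hydroxylases that clear retinoic acid, was lower at 8 mg/kg than in controls and differed widely among the 5 mice of that dose. Its log2 ratio in corn oil mice was 2.34, 1.77, 2.45 and 2.69 on slides 1 to 4. Mice at 1 mg/kg had 2.56, 2.33, 2.45, 1.32 and 2.32 on slides 1 to 5, and mice at 8 mg/kg had 0.64, 1.503, -0.65, -0.59 and 2.09. The mice at 8 mg/kg on slides 3 and 4 stood lowest of all 14, the mouse on slide 1 next, and the mice on slides 2 and 5 reached into the range of the other groups. In whole liver, fewer cells of a type and less RNA per cell cannot be told apart.

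The mean of Cyp26b1 was 0.60 ± 1.23 at 8 mg/kg and 2.31 ± 0.39 in corn oil mice (SD, n = 5 and 4), and 2.20 ± 0.50 at 1 mg/kg (n = 5). The difference between 8 mg/kg and control was -1.92 ± 0.41 (SE), or 0.265-fold, and between 8 and 1 mg/kg it was -1.60 ± 0.37, or 0.33-fold. Of 21975 genes, 3 had a lower value in the first of these differences, a rank that only describes a gene picked with its differences known. Between 1 mg/kg and control it was -0.32 ± 0.41, less than its own SE. Ordered by mean, the level was highest in controls, then at 1 mg/kg, then at 8 mg/kg, and controls and 1 mg/kg did not differ beyond their spread.

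The spread of Cyp26b1 among mice at 8 mg/kg was wide beside that of other genes. Its SD of 1.23 was above that of 99.97% of the genes, and 5 genes had a larger one. The low mice on slides 3 and 4 both widen this SD and lower the mean, so this rank is not separate from that of the difference. Within the slides that held both groups, the mouse at 8 mg/kg was below the control on 4 of 4, with log2 differences of -1.705 on slide 1, -0.264 on slide 2, -3.103 on slide 3 and -3.288 on slide 4. It was below the mouse at 1 mg/kg on 5 of 5 slides, with differences of -3.102 to -0.23. The direction was the same on each of these slides, and the size was not. Without the arrays of slide 3 the difference from control was -1.586 ± 0.413.

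**Figure D1:**
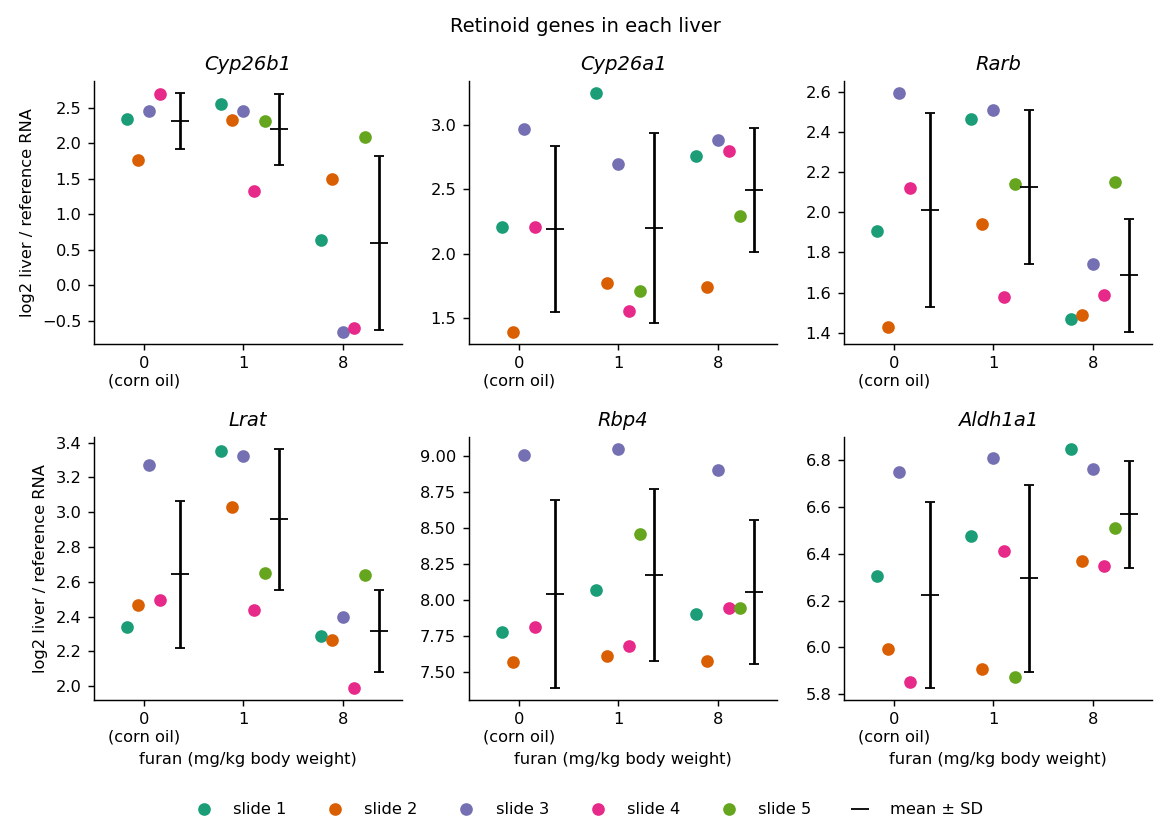
Log2 ratio of liver over reference RNA (vertical axis, a separate scale for each gene) by furan dose in mg/kg body weight (horizontal axis) for the 6 genes. Each point is 1 mouse, coloured by slide, and the bar is the mean ± SD of 4, 5 and 5 mice. Cyp26b1 spans -0.65 to 2.09 at 8 mg/kg, and Rbp4 stands at 8.91 to 9.05 on slide 3 at every dose.

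Cyp26a1, the other hydroxylase and in liver a sensitive target of retinoic acid, did not share the lower level. Its log2 ratio in corn oil mice was 2.21, 1.40, 2.97 and 2.21 on slides 1 to 4. At 1 mg/kg it was 3.25, 1.78, 2.70, 1.56 and 1.72 on slides 1 to 5, and at 8 mg/kg it was 2.76, 1.75, 2.88, 2.80 and 2.30. The 3 groups overlapped along most of their ranges, and the lowest control and the lowest mouse at 8 mg/kg were both on slide 2.

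The mean of Cyp26a1 was 2.50 ± 0.48 at 8 mg/kg and 2.19 ± 0.64 in controls (SD, n = 5 and 4), and 2.20 ± 0.74 at 1 mg/kg (n = 5). The difference between 8 mg/kg and control was 0.39 ± 0.22 (SE), or 1.31-fold, and it was 0.20 without control replicate 4 and 0.22 without 8 mg/kg replicate 5. No neighbouring pair in the order of means differed beyond the spread. On the slides holding both, the mouse at 8 mg/kg was above the control on 3 of 4 (-0.09 to 0.59). The third family member, Cyp26c1, did not pass the filter on dim probes.

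Rarb encodes a receptor for retinoic acid, which in turn induces the gene, and it had its lowest mean at 8 mg/kg. In corn oil mice its log2 ratio was 1.91, 1.43, 2.59 and 2.12 on slides 1 to 4. Mice at 1 mg/kg had 2.46, 1.94, 2.51, 1.58 and 2.14 on slides 1 to 5, and mice at 8 mg/kg had 1.47, 1.49, 1.74, 1.59 and 2.15. Of the 5 mice at 8 mg/kg, 4 stood below 3 of the 4 controls, and the lowest value of all was that of the control on slide 2.

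The difference in Rarb between 8 mg/kg and control was -0.39 ± 0.17 (SE; 0.765-fold), with means of 1.69 ± 0.28 and 2.01 ± 0.48 (SD, n = 5 and 4). Between 8 and 1 mg/kg it was -0.44 ± 0.16 (0.737-fold), the mean at 1 mg/kg being 2.13 ± 0.39 (n = 5). The first is less than the SD of the controls, which includes differences between slides, and more than the SD of 0.25 left in the model. Without the arrays of slide 3 it was -0.24 ± 0.19. Rarb at 8 mg/kg was lower than the control on 3 of 4 slides (-0.85 to 0.06). It was lower than at 1 mg/kg on 3 of 5 slides (-0.995 to 0.01). A second probe of Rarb gave a smaller difference from control, -0.15 ± 0.16, with means of 1.24 ± 0.11 at 8 mg/kg and 1.39 ± 0.45 in controls.

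Lrat, which esterifies retinol for storage, was highest at 1 mg/kg and lowest at 8 mg/kg. In corn oil mice its log2 ratio was 2.34, 2.47, 3.27 and 2.50 on slides 1 to 4. At 1 mg/kg it was 3.35, 3.03, 3.32, 2.44 and 2.65 on slides 1 to 5, and at 8 mg/kg it was 2.29, 2.26, 2.40, 1.99 and 2.64. Every mouse at 8 mg/kg lay below the mouse at 1 mg/kg of its own slide, by 0.01 on slide 5 and by up to 1.06 on slide 1.

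The difference in Lrat between 8 and 1 mg/kg was -0.64 ± 0.15 (SE; 0.64-fold), with means of 2.32 ± 0.24 and 2.96 ± 0.41 (SD, n = 5 each). Between 8 mg/kg and control it was -0.33 ± 0.17 (0.796-fold; control mean 2.64 ± 0.42, n = 4), and between 1 mg/kg and control 0.31 ± 0.17 (1.24-fold). In size, both differences from control were below the SD of the controls, which includes differences between slides. Both were above the SD of 0.24 left in the model after slide and dose. The mouse at 8 mg/kg was lower than the control on 4 of 4 slides (-0.87 to -0.05), and without control replicate 3 the difference was -0.20. From the scanner's own processed signals, the difference between 8 and 1 mg/kg was -0.25 ± 0.31 and that between 1 mg/kg and control -0.19 ± 0.34, whereas the liver channel alone gave -0.48 ± 0.12 and 0.12 ± 0.13. Lrat at 1 mg/kg was below control with the processed signals and above it in every other fit. Without the arrays of slide 3 the difference between 8 mg/kg and control was -0.16 ± 0.18.

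Rbp4, the plasma carrier of retinol, did not separate by dose and separated strongly by slide. Its log2 ratio was 9.01 in controls, 9.05 at 1 mg/kg and 8.91 at 8 mg/kg on slide 3, against 7.57 to 8.46 on the other slides. In the liver channel, after normalization between arrays, the 3 arrays of slide 3 stood at 17.8, 17.5 and 17.6 on the log2 scale. These lay toward the low end of all 14 arrays, so their higher ratio did not go with a higher value in that channel. Slides accounted for 94.1% of the variance of Rbp4 and doses for 1.4%. The difference between 8 mg/kg and control was -0.008 ± 0.105 (SE), with means of 8.06 ± 0.50 and 8.04 ± 0.65 (SD, n = 5 and 4), and between 1 mg/kg and control it was 0.11 ± 0.11 (mean 8.18 ± 0.60, n = 5).

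Aldh1a1, which oxidises retinal to retinoic acid and is abundant in liver, had its highest mean at 8 mg/kg. In corn oil mice its log2 ratio was 6.30, 5.99, 6.75 and 5.85 on slides 1 to 4. Mice at 1 mg/kg had 6.47, 5.91, 6.81, 6.41 and 5.87 on slides 1 to 5, and mice at 8 mg/kg had 6.85, 6.37, 6.76, 6.35 and 6.51. All 5 mice at 8 mg/kg lay at or above 6.35, as did 3 of the 5 mice at 1 mg/kg and 1 of the 4 controls.

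The mean of Aldh1a1 was 6.57 ± 0.23 at 8 mg/kg and 6.22 ± 0.40 in controls (SD, n = 5 and 4), and 6.30 ± 0.40 at 1 mg/kg (n = 5). The difference between 8 mg/kg and control was 0.40 ± 0.12 (SE; 1.32-fold), between 8 and 1 mg/kg 0.27 ± 0.11, and between 1 mg/kg and control 0.13 ± 0.12. The control and 1 mg/kg means did not differ beyond their spread. Within slides the mouse at 8 mg/kg was higher than the control on 4 of 4 (0.02 to 0.55), with the smallest difference on slide 3.

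**Figure D2:**
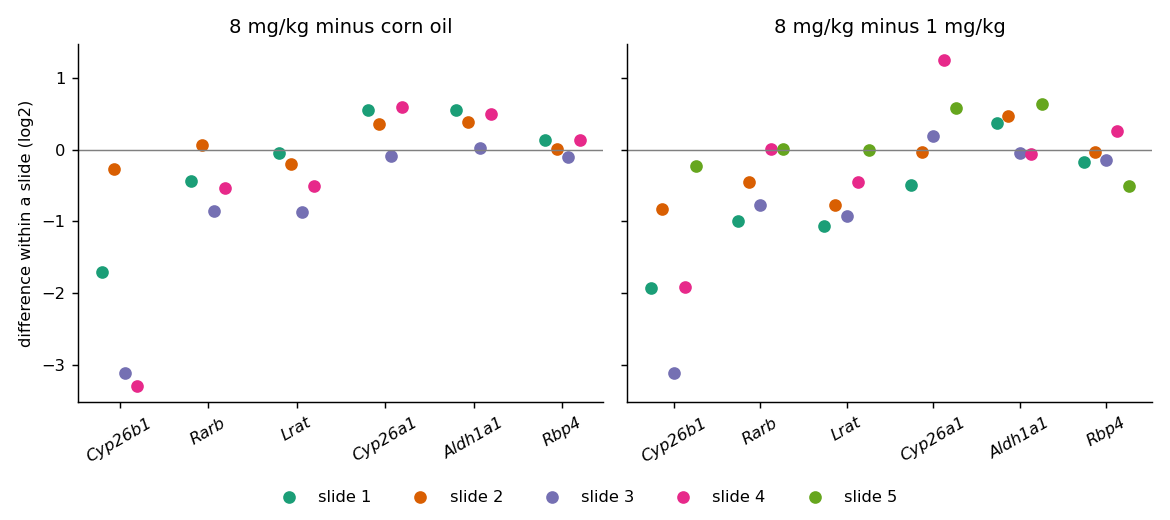
Difference in log2 ratio between 2 mice of the same slide (vertical axis) for each of the 6 genes (horizontal axis), 8 mg/kg minus corn oil on the left (4 slides) and 8 minus 1 mg/kg on the right (5 slides), coloured by slide. Cyp26b1 and Lrat lie below 0 on every slide in both panels, Cyp26b1 down to -3.29.

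None of the 6 had groups that stood apart without overlap, in any of the 3 comparisons. Groups did so for 5.6% of all genes between 8 mg/kg and control, 0.828% between 1 mg/kg and control and 3.61% between 8 and 1 mg/kg. By limma's test 4.09% of all genes passed between 8 mg/kg and control, 0% between 1 mg/kg and control and 5.29% between 8 and 1 mg/kg (2.42% higher, 2.87% lower). Dose accounted for 54% of the variance of Cyp26b1 and 42.2% of that of Lrat, but 24.2% for Rarb, 19% for Aldh1a1 and 6.3% for Cyp26a1. Slides accounted for more than doses for Cyp26a1 (65%), Aldh1a1 (58.9%), Rarb (39.4%) and Rbp4, and less for Lrat (29.5%) and Cyp26b1 (11.1%). These shares come from separate fits and are not adjusted for the number of groups. With no effect at all, 5 slides would take up more variance than 3 dose groups.

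Across the 14 arrays, with each slide's mean taken out, Lrat, Rarb and Cyp26b1 varied together. Pearson's r was 0.90 between Lrat and Rarb, 0.84 between Cyp26b1 and Rarb and 0.77 between Cyp26b1 and Lrat. With the dose means also taken out, these were 0.88, 0.75 and 0.69. The 3 genes moved together with dose taken out as well as with it left in, on arrays that share slides and a reference. Aldh1a1 ran against Cyp26b1 at -0.49, which became 0.32 once dose was taken out.

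Cyp26a1 behaved differently according to whether dose was included. With the slide taken out its r was -0.25 with Cyp26b1, 0.25 with Rarb and 0.16 with Lrat. With dose taken out as well, it was 0.30, 0.83 and 0.80. With slide and dose taken out, Cyp26a1 was high where Rarb and Lrat were high, while its mean was highest at the dose where theirs were lowest. This pools the doses, and the ratios within 1 dose did not all run this way. At 8 mg/kg the mouse with the lowest Lrat (1.99, slide 4) had a Cyp26a1 of 2.80. The mouse of that dose with the highest Rarb and Lrat (2.15 and 2.64, slide 5) had 2.30. The r values are descriptions of 14 arrays and carry no test, and taking out slide and dose leaves fewer free values than 14. With the slide taken out, replicate 5 at 1 mg/kg stood at 0.51 for Cyp26a1, 0.52 for Rarb and 0.69 for Lrat. Its array also had the highest ratios of the fat markers Cfd (5.52) and Fabp4 (4.14).

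**Figure D3:**
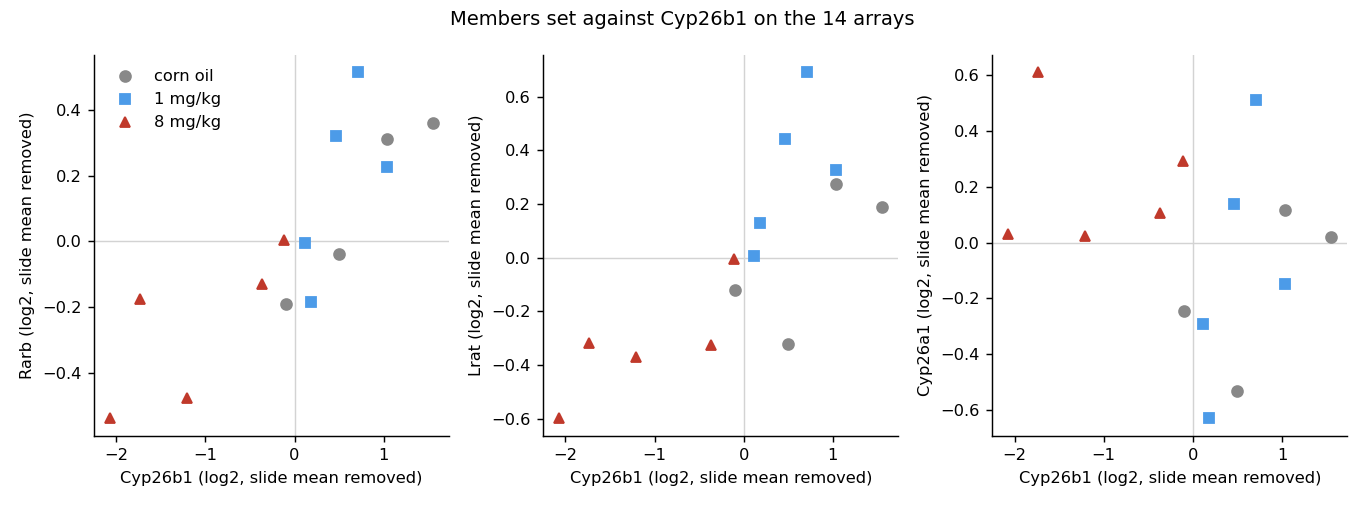
Rarb, Lrat and Cyp26a1 (vertical axes) against Cyp26b1 (horizontal axes) on the 14 arrays, as log2 ratios minus the mean of their slide, with circles for corn oil, squares for 1 mg/kg and triangles for 8 mg/kg. Rarb and Lrat climb with Cyp26b1 (r = 0.84 and 0.77), and Cyp26a1 does not (r = -0.25).

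Among 13762 genes with a symbol and a value on every array, those whose slide-adjusted values were most like Cyp26b1 were Stard8 (r = 0.964), Cux1 (0.958) and Trappc2l (0.955), and 15 genes had r above 0.9. Their own differences at 8 mg/kg against control were small, at -0.23, -0.27 and -0.15. The nearest to Rarb were Ccdc167 (0.959), Fam167b (0.94) and B3galt1 (0.927). B3galt1 was also among the nearest to Lrat (0.94), beside S100a13 (0.941) and Iqsec2 (0.938). Cyp26a1 was nearest to Rabac1 (0.924), Lce3b (0.9) and Foxa2 (0.895), Rbp4 to Ano1 (0.917), Serpina3k (0.91) and Exph5 (0.905), and Aldh1a1 to Mthfd1 (0.964), Ucp3 (0.936) and Col5a3 (0.93). Each r is over 14 arrays.

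The rest of the retinoid pathway was then set beside the 6 genes, as 57 further genes of synthesis, storage, transport, uptake, receptors, coregulators and known targets. The lists were chosen with earlier results of these data known, so their calls are not an independent test. Of the 57 genes 48 passed the filter, and Cyp26c1, Aldh1a3, Adh7, Rbp2, Rbp7, Stra6, Hoxb1, Cdx1 and Stra8 did not. Between 8 mg/kg and control, 2 rose, 1 fell and 45 did not pass limma's test at an adjusted p under 0.05, with p-values adjusted over all 21975 genes. That is 6.25% of the list, with 4.09% of all genes called (2.73% higher, 1.37% lower). The list's median difference was 0.005, beside 0.0018 for all genes.

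Of the 5 genes of retinoid binding and transport in this set of 48, 0 passed at 8 mg/kg against control, where 4.09% of all genes passed. Ttr, the plasma partner of Rbp4, lay at -0.09 ± 0.10, the cellular retinoic acid-binding proteins Crabp1 and Crabp2 at -0.16 ± 0.09 and 0.10 ± 0.09, Fabp5 at 0.009 ± 0.24 and Stra6l, a retinol uptake receptor of liver, at 0.008 ± 0.1.

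Of 14 measured genes that interconvert retinol and retinal, 1 fell, 0 rose and 13 did not pass at 8 mg/kg against control, where 1.37% of all genes fell and 2.73% rose. Rdh9, a retinol and steroid dehydrogenase of the short-chain family, had log2 ratios of 3.97, 3.42, 4.76, 3.60 and 3.79 at 8 mg/kg on slides 1 to 5, against 4.11, 4.21, 5.14 and 4.35 in controls on slides 1 to 4. It fell by 0.52 ± 0.14 on the log2 scale against control (limma adjusted p = 0.0475), and against 1 mg/kg the difference was -0.56 ± 0.13 (0.678-fold, limma adjusted p = 0.0209). The ranges overlapped, with slide 3 highest in each group, and within slides it was lower than control on 4 of 4 and lower than 1 mg/kg on 5 of 5.

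These calls of Rdh9 were near the threshold, holding in 9 of 27 other settings against control and 16 of 27 against 1 mg/kg. Rdh1, Rdh7, Rdh9 and Rdh16 are close paralogs whose transcripts can hybridise to each other's probes, so their values are uncertain, and Rdh1, Rdh7 and Rdh16 lay at 0.002 ± 0.11, -0.13 ± 0.09 and -0.16 ± 0.08. The alcohol dehydrogenase gene Adh4, which also oxidises retinol, lay at 0.49 ± 0.14 (limma adjusted p = 0.0705), higher on 4 of 4 slides. Rdh5 lay at 0.20 ± 0.12 and Dhrs4 at -0.16 ± 0.08. Dhrs3, which reduces retinal back to retinol and is induced by retinoic acid, lay at 0.14 ± 0.08.

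Aldh1a2 and Aldh8a1, the other measured enzymes that make retinoic acid, lay at 0.22 ± 0.11 and -0.02 ± 0.09, and neither passed. Of 5 genes of retinyl ester storage and hydrolysis, 0 passed at 8 mg/kg against control, where 4.09% of all genes passed. Between 8 and 1 mg/kg the hormone-sensitive lipase gene Lipe, whose product can split retinyl esters, fell by 0.38 ± 0.10 on the log2 scale (limma adjusted p = 0.0403), with means of 0.57 ± 0.18 and 0.95 ± 0.15 (SD, n = 5 each). It was lower on 5 of 5 slides (-0.69 to -0.03), and the call held in 10 of 27 other settings. Against control, Lipe at 8 mg/kg lay at -0.19 ± 0.11.

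Lipe is also a fat cell gene, and the fat marker Cfd stood high on 3 arrays. Of 4 fat markers, Cfd and Fabp4 passed the filter and Adipoq and Plin1 did not. The filter asks for at least 4 arrays, so a marker with signal on 3 alone could not pass. The Cfd log2 ratio was 5.52 and 2.63 in replicates 5 and 1 at 1 mg/kg (slides 1 and 2) and 3.68 in replicate 5 at 8 mg/kg (slide 4), and -0.22 to 0.52 on the other 11 arrays. The Fabp4 ratio was 4.14 in the first of these 3. It was 3.02 and 2.58 in the other 2, within the 2.50 to 3.23 of the remaining arrays. The part of fat tissue, if any, in the values of Lipe, Lrat and Rbp4 was not tested beyond leaving arrays out. Without replicate 5 at 1 mg/kg, the difference between 8 and 1 mg/kg was -0.41 ± 0.11 for Lipe (limma adjusted p = 0.0588) and -0.50 ± 0.14 for Lrat.

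Among carotenoid genes, Bco1, the enzyme that splits beta-carotene into retinal, lay at 0.41 ± 0.17 (limma adjusted p = 0.197, with the reference channel well above background on 0 arrays), Bco2 at -0.23 ± 0.12 and the uptake receptor Scarb1 at -0.07 ± 0.09. None of the 6 measured receptors passed at 8 mg/kg against control, where 4.09% of all genes passed. Rxrb lay at 0.23 ± 0.09, Rxra at -0.19 ± 0.11 and Rxrg at -0.18 ± 0.09. Rara lay at -0.06 ± 0.11 and Rarg at 0.006 ± 0.10. Rarb, which was picked with its differences known, lay at -0.39 ± 0.17 with the probe that stood for it. Its other probe gave -0.15 ± 0.16, in size below its own SE, so no rank among the receptors is drawn.

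Of 6 coregulators 2 rose at 8 mg/kg against control, Ncor1, a corepressor, by 0.42 ± 0.08 (limma adjusted p = 0.0154) and Ncoa1, a coactivator, by 0.33 ± 0.08 (limma adjusted p = 0.0299), where 2.73% of all genes rose. The log2 ratios of Ncor1 were 0.15, 0.23, 0.13, 0.28 and -0.05 at 8 mg/kg on slides 1 to 5, against -0.21, -0.35, -0.14 and -0.23 in controls on slides 1 to 4, with no overlap. Other probes of these genes gave smaller differences. A second Ncor1 probe gave 0.08 ± 0.09, and the other 2 Ncoa1 probes gave 0.27 ± 0.10 and 0.02 ± 0.08, and with the mean of all probes of a gene neither passed. The calls held in 18 of 27 other settings for Ncor1 and 10 of 27 for Ncoa1. Both proteins serve many nuclear receptors, not retinoid receptors alone.

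Of the 7 genes in the set known as targets of retinoic acid, mostly from embryonic or cultured cells, 0 passed at 8 mg/kg against control, where 4.09% of all genes passed. The median of the 7 was -0.02, with Rarres2 at -0.21 ± 0.08, Meis2 at -0.14 ± 0.10, Tgm2 at 0.13 ± 0.11 and Cebpe at 0.30 ± 0.12. A further 3 targets, Hoxb1, Cdx1 and Stra8, did not pass the filter.

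**Figure D4:**
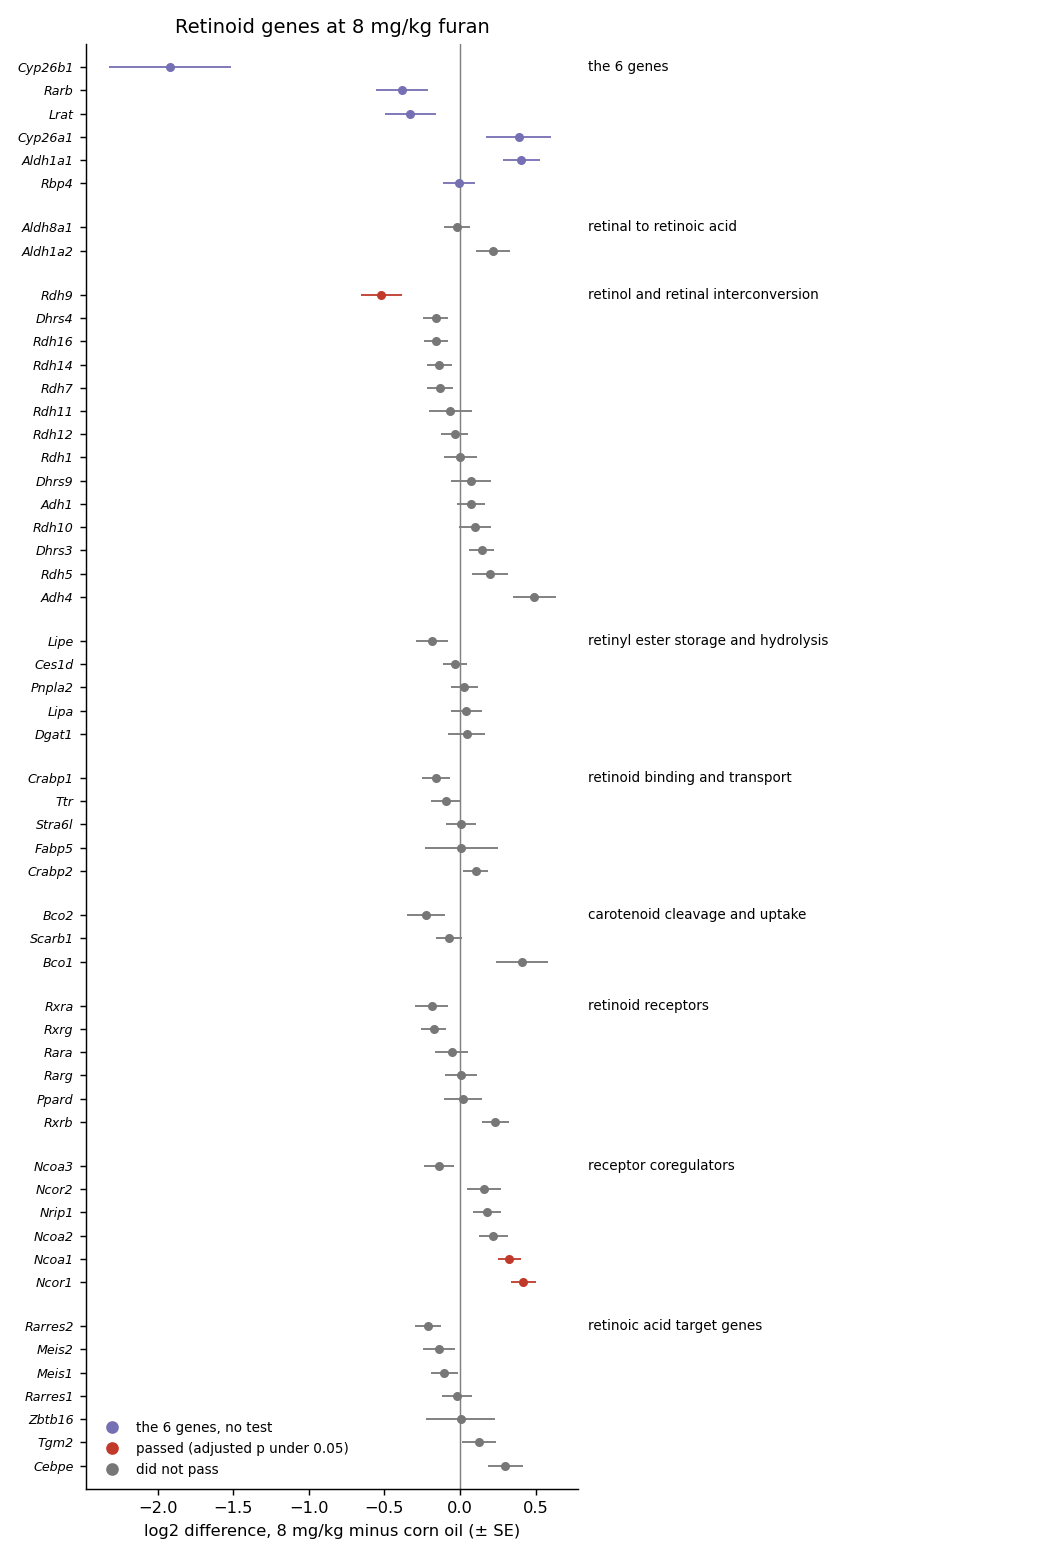
Difference in log2 ratio between 8 mg/kg and corn oil (horizontal axis, point and ± SE) for the 6 genes (violet, no test) and the 48 other retinoid genes tested (red where the adjusted p was under 0.05, grey otherwise), grouped by role down the page. Cyp26b1 at -1.92 lies farthest from 0 and Adh4 at 0.49 is the highest.

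Between 1 mg/kg and control, 0 of the 48 genes passed limma's test, as did 0% of all genes, of which 1510 (6.87%) had an unadjusted p under 0.05. The list's median was 0.05, beside 0.03 for all genes. Between 8 and 1 mg/kg 1 rose (Ncor1, 0.36 ± 0.08, limma adjusted p = 0.0178), 2 fell (Rdh9 and Lipe) and 45 did not pass. That is 6.25% of the list, with 5.29% of all genes called (2.42% higher, 2.87% lower), and the medians were -0.04 and -0.02. At this share the list is near all genes.

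**Figure D5:**
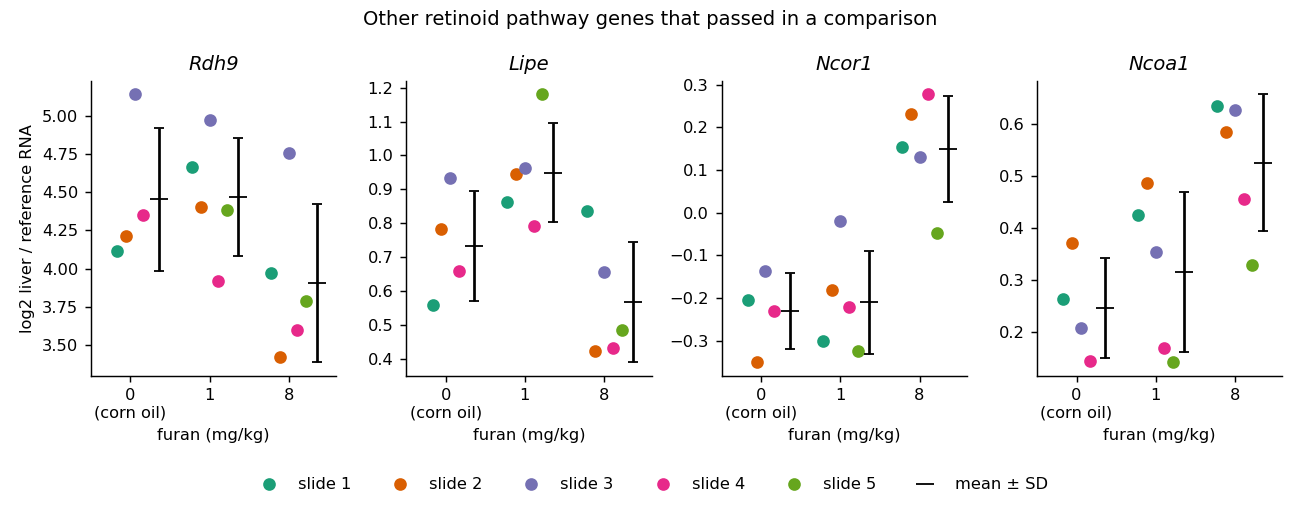
Log2 ratio of liver over reference RNA (vertical axis, a separate scale for each gene) by furan dose in mg/kg (horizontal axis) for those of the 48 other retinoid genes that passed in at least 1 comparison, Rdh9, Lipe, Ncor1 and Ncoa1. Each point is 1 mouse coloured by slide, with mean ± SD beside it. Rdh9 stands highest on slide 3 at every dose, and the Ncor1 values at 8 mg/kg (-0.05 to 0.28) lie above all controls.

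Markers of the liver's cell types were read beside these genes. Their lists, that of pericentral hepatocytes included, were also chosen with earlier results of these data known, so their calls are not an independent test. Of 10 hepatic stellate cell markers 0 passed in any comparison, with median differences of 0.03 between 8 mg/kg and control and -0.12 between 8 and 1 mg/kg. Their mean log2 ratio was -0.06 to 0.46 in controls, -0.02 to 0.50 at 1 mg/kg and 0.12 to 0.37 at 8 mg/kg. At 8 mg/kg against control, the 10 differences ran from -0.15 ± 0.10 for Des to 0.29 ± 0.21 for Col3a1. Of sinusoidal endothelial markers 0 of 9 passed (median -0.10), of Kupffer cell markers 0 of 6 (0.02), of hepatocyte markers 0 of 7 (0.04) and of cholangiocyte markers 0 of 4 (-0.05), and of pancreas markers 1 of 4 passed the filter (Cela1, -0.14). Of all genes 4.09% passed between 8 mg/kg and control, 0% between 1 mg/kg and control and 5.29% between 8 and 1 mg/kg. At such shares, 0 calls in lists this short do not show that a cell type was unchanged.

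Markers of pericentral hepatocytes, the cells around the central vein, were lower at 8 mg/kg in part. Of 7 measured, 2 fell against control, the glutamine synthetase gene Glul by 0.35 ± 0.09 on the log2 scale (limma adjusted p = 0.0426) and the glutamate transporter gene Slc1a2 by 0.38 ± 0.09 (limma adjusted p = 0.0299), where 1.37% of all genes fell. Lgr5, a receptor gene, lay on the other side at 0.24 ± 0.20. The median of the 7 was -0.33, and the mean ratio of the 7 was 4.57 to 5.47 in controls, 4.54 to 5.43 at 1 mg/kg and 4.30 to 5.31 at 8 mg/kg. Between 8 and 1 mg/kg 3 of 7 fell, Glul, Slc1a2 and the ammonium transporter gene Rhbg (-0.41 ± 0.11, limma adjusted p = 0.0438), where 2.87% of all genes fell. Against control, the calls of Glul and Slc1a2 held in 7 and 10 of 27 other settings, and against 1 mg/kg that of Rhbg held in 10 of 27. The part of the pericentral cells in the values of the retinoid genes was not tested.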

How the data were processed

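Liver RNA of 14 mice was labelled with Cy5 and a universal reference RNA with Cy3, in 1 dye orientation, and hybridised to Agilent SurePrint G3 mouse arrays, per the labels' protocols. The deposited scanner files hold spot intensities from Feature Extraction 10.7.3.1, per the file headers. A further table of values, deposited by the authors, proved to hold linear liver over reference ratios (column medians 0.9765 to 0.9897), whose log2 correlated with the log ratios computed here at 0.9921 to 0.9951. How it was normalized is, in the sources used here, not given. It served as an alternative only.

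Median intensities were background-corrected with normexp (offset 50) against the median local background and loess-normalized within each array. The 3671 control spots of 62976 features had no weight, 178 to 336 outlier spots per array were dropped, no spot was saturated, and repeated spots were averaged to 55681 probes. The planned design allowed mean or median intensity; the files gave the median. Probes well above background in liver on at least 4 of 14 arrays were kept (28866), and the brightest in liver stood for its gene. Accessions matched to RefSeq (GRCm38.p6) named 26413 probes and left 29268 without a symbol, which were tested as genes but are not named. Of the 21975 genes tested, 13772 had a symbol.

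Differences between doses came from limma 3.58.1 in R 4.3.3 (lmFit, then eBayes), fitting the 14 arrays together and the slide as fixed block, with Benjamini-Hochberg adjustment over all genes and a threshold of 0.05. The 5 slides were scanned on 4 days, and day and slide were not separated. Samples were grouped by their titles. Replicate numbers did not pair the samples: over 13 pairs of the same number, deviations from the group means correlated at -0.424 to 0.246, and 5 pairs exceeded 0.1.

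The 6 genes and all lists were chosen with earlier results of these data known. Named in the text are the 6 genes, list genes that passed in a comparison, up to 4 others per list with the largest difference at 8 mg/kg against control, the 3 genes most like each of the 6, and markers that passed; other list genes were added after their values were seen, and 2 list genes are not reported here. Alternatives covered background correction, normalization, filter, slide, probes, replicate block and leaving out arrays. The number of arrays limits the precision. Plots used matplotlib 3.10.9 (Python 3.11.15).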

Additional observations from a re-analysis of the deposited data

Results flagged for a closer look

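In 9 of 123 groups of values, for the 6 genes and the other genes chosen by the naming rule (cell type markers included), 1 array stood apart from the rest of its group by Dixon's gap test, which chance gives in about 1 of 20 groups. The log2 ratio of Cyp26b1 in replicate 3 at 1 mg/kg was 1.32, below the next value of 2.32. The mouse is on slide 4, where the mouse at 8 mg/kg was also among the lowest (-0.59). The control on that slide went the other way, with the highest Cyp26b1 ratio of all arrays (2.69). Lrat was at 3.27 in control replicate 3, above 2.50 for the nearest control.

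Of the 9, 6 are arrays of slide 3. Besides Lrat in control replicate 3, they are Rbp4 at 8.91 in replicate 2 at 8 mg/kg (nearest 7.95) and at 9.01 in control replicate 3 (nearest 7.82), Rdh16 at 5.39 in replicate 4 at 1 mg/kg (nearest 4.62) and at 5.44 in control replicate 3 (nearest 4.61), and the carboxylesterase gene Ces1d at 9.28 in replicate 2 at 8 mg/kg (nearest 8.48). The coactivator gene Ncoa2 was at 0.64 in control replicate 4 on slide 1, below 0.95 for the next control. The transglutaminase gene Tgm2, a target of retinoic acid, was at 1.80 in replicate 1 at 8 mg/kg on slide 2, above 1.53 for the nearest mouse of that dose.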

How the results depend on the processing

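Over 27 other settings, the difference between 8 mg/kg and control kept its sign for Cyp26b1 (-2.34 to -1.52), Lrat (-0.49 to -0.16), Rarb (-0.54 to -0.21), Cyp26a1 (0.13 to 0.59) and Aldh1a1 (0.32 to 0.52), and it was -0.17 to 0.08 for Rbp4, with -0.166 from the scanner's processed signals. Within single slides the values that moved by more than the spread between replicates were 0.016 for Aldh1a1, -0.086 for Cyp26a1, -3.103 for Cyp26b1, -0.871 for Lrat and -0.852 for Rarb on slide 3, -0.264 for Cyp26b1 and 0.059 for Rarb on slide 2, -3.288 for Cyp26b1 on slide 4 and -0.051 for Lrat on slide 1.

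Counts of genes that passed moved more. Between 8 mg/kg and control, 899 genes passed (66.6% higher). There were 1352 with median centring in place of loess (96.4% higher), which moved the median of all genes to 0.137, 1338 with the liver channel alone (52.3% higher), 389 with processed signals, 302 with only the 2 groups in the fit, 273 with no slide in the model and 400 without slide 3, a setting chosen after seeing the data. With 1 array left out, 315 to 872 passed, with the count farthest down without 8 mg/kg replicates 1, 3 or 5, 1 mg/kg replicate 2 or any control. Between 8 and 1 mg/kg, 1162 passed (45.7% higher), against 410 with median centring (68.3% higher), 297 with no slide (62% higher), 430 with processed signals (64.4% higher) and 418 to 1249 with 1 array left out, farthest down without 8 mg/kg replicates 1, 3 or 5 or 1 mg/kg replicates 1, 2, 3 or 5. Between 1 mg/kg and control, 0 passed, 4 with median centring (median of all genes 0.151), 1 each with the authors' deposited values, no background correction and no filter, and 0 to 3 with 1 array left out.

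Of the 48 retinoid genes, 3 passed between 8 mg/kg and control, but 0 with the mean of a gene's probes, with no slide, with only the 2 groups and with processed signals, 1 without slide 3 (Ncor1), and 0 to 4 with 1 array left out. Between 8 and 1 mg/kg, 3 passed, but 0 with median centring, no slide or processed signals, and 0 to 3 with 1 array left out. Between 1 mg/kg and control, 0 passed, also with median centring and with 1 array left out. With the replicate block in place of the slide, 122, 0 and 150 genes passed in the comparisons of 8 mg/kg with control, 1 mg/kg with control and 8 with 1 mg/kg, and 0, 0 and 0 of the retinoid genes. The cause was not tested. Lrat and Cyp26a1 lay near background in the reference channel, which limits the precision of their ratios.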
